A study of Arabidopsis thaliana with 24 samples.

Results

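The 7 genes described here encode the enzymes with which a fat-storing seedling turns stored oil into sugar: isocitrate lyase (ICL, AT3G21720_at), malate synthase (MLS, AT5G03860_at), the peroxisomal citrate synthases CSY2 (AT3G58750_at) and CSY3 (AT2G42790_at), the peroxisomal malate dehydrogenases PMDH1 (AT2G22780_at) and PMDH2 (AT5G09660_at), and phosphoenolpyruvate carboxykinase (PCK1, AT4G37870_at). They were chosen by locus for their place in the pathway, by a rule that uses no measured value, though with earlier results of these data known, and make up 7 of the 27827 loci in the table. All 7 were present, each as 1 probe set (whose name is the locus followed by _at), and none shared its values with a second locus.

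Seeds of wild-type Arabidopsis thaliana of the ecotype Col-0 were studied while they matured, at 12, 15, 18 and 20 days after pollination (DAP). At each stage 2 RNA fractions were hybridised separately, total RNA and polysomal RNA, which is the RNA bound to several ribosomes at once. The 8 groups of fraction by stage each held 3 biological replicates, numbered 1 to 3, for 24 arrays in all, and no group was treated or mutant. Whole seeds were sampled, each replicate from a bulk of plants grown in a blocked planting, so embryo, endosperm and seed coat were measured together.

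In the glyoxylate cycle, acetyl-CoA released from fatty acids by peroxisomal β-oxidation is joined to oxaloacetate by citrate synthase, and isocitrate lyase and malate synthase then bypass the steps of the citric acid cycle that release CO2. Peroxisomal malate dehydrogenase interconverts malate and oxaloacetate and reoxidises the NADH made by β-oxidation, and in leaves it also serves photorespiration. Phosphoenolpyruvate carboxykinase takes oxaloacetate into gluconeogenesis, the route to sucrose. The cycle is best known from germinating oilseeds, and its transcripts are also known to appear while the embryo is still maturing.

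The 12 DAP arrays stood apart from the rest. Pearson correlations between replicates were 0.739 to 0.851 in the 12 DAP groups and 0.955 to 0.990 in the later groups, and the median SD of a locus among replicates was 0.532 to 0.567 against 0.175 to 0.301 log2 units. The SD of levels over loci on a 12 DAP array was 1.39 to 1.71 log2 units, against 2.13 to 2.43 on later arrays. The mean log2 level of 9 seed reserve markers (storage protein and oil body genes) lay between 10.8 and 12.0 on every array. High levels of these genes cannot show whether fruit tissue was present as well, and silique markers are given below. All changes below are on the log2 scale, with the standard error of a limma fit in which the 12 DAP arrays had a lower weight, and a locus is said to have risen or fallen where its p-value, adjusted over all 27827 loci, was under 0.05. The median change of all loci between 12 and 15 DAP was -0.32 in total and -0.51 in polysomal RNA, and was 0.03 or less in size between later stages.

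**Figure D1:**
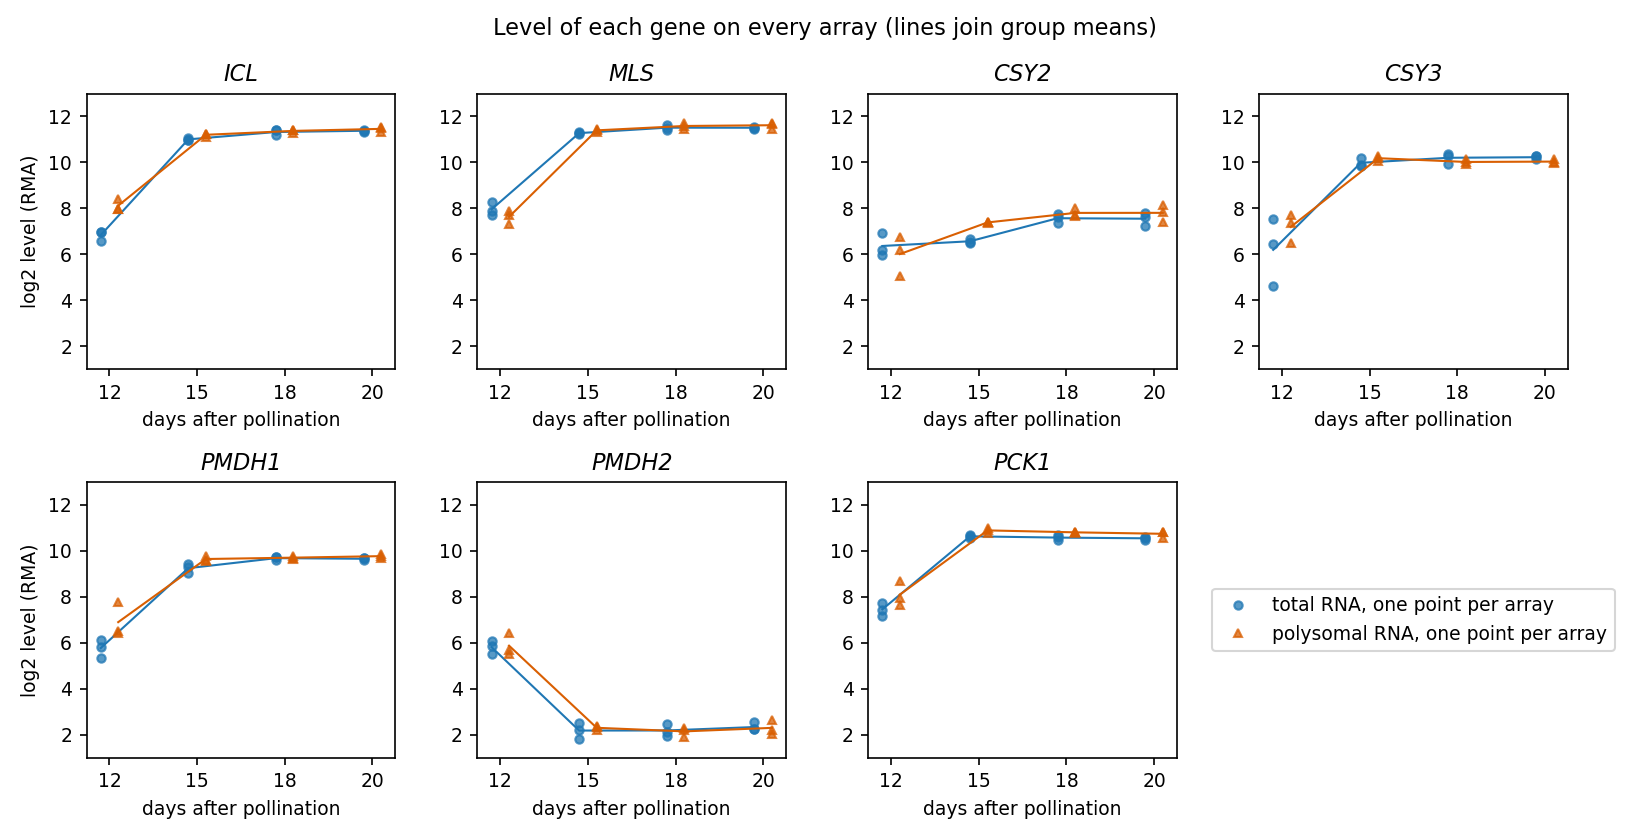
Log2 level of each of the 7 genes on each of the 24 arrays, by days after pollination, with circles for total RNA, triangles for polysomal RNA and lines through the means of 3 arrays. ICL, MLS, CSY3, PMDH1 and PCK1 stepped up between 12 and 15 DAP, PMDH2 stepped down, and CSY2 climbed least (in the deposited values; its direction from 12 to 15 DAP turned under cyclic loess).

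Between 12 and 15 DAP, 5 of the 7 genes rose in total RNA and 6 in polysomal RNA, while PMDH2 fell in both. The rises in total RNA were between 9.05-fold for PCK1 and 18.0-fold for ICL, and the array signal of PMDH2 fell 12.4-fold. CSY2 did not pass the test in total RNA at this step and rose 2.59-fold in polysomal RNA. Changes were general at this step: 40.3% of all loci were called in total RNA (21.8% higher and 18.4% lower) and 63.9% in polysomal RNA (29.7% higher and 34.2% lower). The median change of the 7 genes was 3.32 in total and 2.79 in polysomal RNA. Measured from the median of all loci, the 5 genes that rose in total RNA lay between 3.50 for PCK1 and 4.49 for ICL above it, and PMDH2 at -3.31. In rank these 5 genes were already high at 12 DAP. Their mean percentiles in total RNA were 80.4 (PMDH1) to 96.5 (MLS) at 12 DAP and 97.5 (PMDH1) to 99.7 (MLS) at 15 DAP. In polysomal RNA they were 93.8 (PMDH1) to 97.7 (ICL) and 98.4 (PMDH1) to 99.8 (MLS).

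Isocitrate lyase, with malate synthase one of the pair of enzymes that define the cycle, splits isocitrate into succinate and glyoxylate. In total RNA the log2 level of ICL was 6.96, 6.98 and 6.57 at 12 DAP, 11.07, 10.97 and 10.97 at 15 DAP, 11.40, 11.39 and 11.19 at 18 DAP, and 11.37, 11.42 and 11.34 at 20 DAP. In polysomal RNA it was 7.99, 8.39 and 7.97 at 12 DAP, 11.25, 11.25 and 11.12 at 15 DAP, 11.41, 11.43 and 11.28 at 18 DAP, and 11.56, 11.50 and 11.32 at 20 DAP. Every array from 15 DAP on was above every 12 DAP array in both fractions, and within 12 DAP all 3 polysomal arrays were above all 3 total arrays. From 12 to 15 DAP ICL rose by 4.17 ± 0.25 in total RNA (adjusted p = 4.67e-11) and by 3.08 ± 0.25 in polysomal RNA (adjusted p = 1.23e-09). A further difference of 0.37 ± 0.14 between 15 and 20 DAP in total RNA did not pass (adjusted p = 0.0581), although the 3 arrays of 20 DAP were all above the 3 of 15 DAP. Ordered by mean level, the ranges of neighbouring groups overlapped from polysomal RNA at 20 DAP, the highest, down to polysomal RNA at 15 DAP. The lowest 3 groups, total RNA at 15 DAP, polysomal RNA at 12 DAP and total RNA at 12 DAP, were separate from their neighbours.

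Malate synthase condenses that glyoxylate with a further acetyl-CoA to malate. The log2 level of MLS in total RNA was 7.70, 7.90 and 8.28 at 12 DAP, 11.27, 11.23 and 11.33 at 15 DAP, 11.62, 11.52 and 11.40 at 18 DAP, and 11.52, 11.55 and 11.46 at 20 DAP. Its level in polysomal RNA was 7.89, 7.70 and 7.32 at 12 DAP, 11.42, 11.44 and 11.33 at 15 DAP, 11.72, 11.61 and 11.44 at 18 DAP, and 11.68, 11.71 and 11.47 at 20 DAP. The gene was at its lowest at 12 DAP in both fractions, whose ranges overlapped there, and the later arrays did not overlap with them. MLS rose by 3.32 ± 0.25 in total RNA (adjusted p = 1.07e-09), a 9.97-fold change, and by 3.76 ± 0.25 in polysomal RNA (adjusted p = 1.34e-10), or 13.6-fold. From 15 to 20 DAP the difference was 0.23 ± 0.14 in total RNA (adjusted p = 0.276) and 0.22 ± 0.14 in polysomal RNA (adjusted p = 0.375), neither of which passed.

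The citrate synthases CSY2 and CSY3 both supply citrate in the peroxisome, and they followed different courses. CSY3 in total RNA was at 7.55, 6.43 and 4.61 at 12 DAP, 10.21, 9.86 and 9.88 at 15 DAP, 10.28, 10.38 and 9.95 at 18 DAP, and 10.26, 10.27 and 10.15 at 20 DAP. In polysomal RNA CSY3 was at 7.37, 7.71 and 6.50 at 12 DAP, 10.29, 10.19 and 10.08 at 15 DAP, 10.02, 10.13 and 9.91 at 18 DAP, and 10.14, 9.999 and 9.98 at 20 DAP. The total RNA arrays of 12 DAP spread from 4.61 to 7.55, the widest range of any of the 7 genes in any group, yet all of them lay below every later array. CSY3 rose by 3.79 ± 0.40 in total RNA (adjusted p = 1.24e-07) and by 2.99 ± 0.40 in polysomal RNA (adjusted p = 2.16e-06), and its groups from 15 DAP on overlapped along the whole order of means.

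CSY2 is likewise a peroxisomal citrate synthase. Its log2 level in total RNA was 6.95, 6.19 and 5.96 at 12 DAP, 6.55, 6.52 and 6.65 at 15 DAP, 7.62, 7.75 and 7.36 at 18 DAP, and 7.64, 7.78 and 7.23 at 20 DAP. In polysomal RNA its level was 6.19, 5.08 and 6.77 at 12 DAP, 7.40, 7.36 and 7.41 at 15 DAP, 8.01, 7.68 and 7.72 at 18 DAP, and 7.84, 8.16 and 7.42 at 20 DAP. The 3 total RNA arrays of 15 DAP lay within the range of those of 12 DAP and below all 6 of 18 and 20 DAP, while the polysomal arrays of 15 DAP were already above all 12 DAP arrays of that fraction. The change in total RNA was 0.20 ± 0.37 from 12 to 15 DAP (adjusted p = 0.683), and CSY2 then rose by 1.003 ± 0.21 from 15 to 18 DAP (adjusted p = 0.00256), or 2.0035-fold. In polysomal RNA it rose by 1.38 ± 0.37 from 12 to 15 DAP (adjusted p = 0.00345), and the next step of 0.42 ± 0.21 did not pass (adjusted p = 0.235). Without replicate 2 of the 12 DAP polysomal arrays, the lowest at 5.08, that rise was 0.91 and no longer passed (adjusted p = 0.0686).

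After 15 DAP, CSY2 in total RNA was the one gene of the 7 called in the fit of all arrays. Of all loci, 13.4% were called from 15 to 18 DAP in total RNA (7.49% higher) and 19.5% from 15 to 20 DAP (11.3% higher), and CSY2 was 1 of 7 genes called in each comparison. In polysomal RNA 0 of the 7 genes passed from 15 to 18 DAP or from 15 to 20 DAP, where 11.1% and 12.3% of loci were called. From 18 to 20 DAP none of the 7 genes passed in either fraction, with 0.0359% of loci called in total and 0% in polysomal RNA. In these 4 comparisons 0 of the 7 genes had an unadjusted p under 0.05 in limma. Of all 27827 loci, 6582 and 6680 did in polysomal RNA from 15 to 18 and from 15 to 20 DAP. From 18 to 20 DAP 2372 loci did in total and 542 in polysomal RNA. With equal weights for all arrays the rise of CSY2 from 15 to 18 DAP did not pass (adjusted p = 0.118), and with the compared arrays alone its adjusted p was 0.06. The rise from 15 to 20 DAP did not pass with equal weights either (adjusted p = 0.0857). Fitted without the 12 DAP arrays, PMDH1 was called too from 15 to 18 DAP (adjusted p = 0.0448) and from 15 to 20 DAP (adjusted p = 0.0461), and ICL from 15 to 20 DAP (adjusted p = 0.048). ICL was also called from 15 to 20 DAP without the dimmest 25% of loci (adjusted p = 0.0327). Under quantile normalization ICL (0.54), MLS (0.40) and PMDH1 (0.48) were called with CSY2 from 15 to 20 DAP in total RNA, and ICL (0.49) and MLS (0.47) in polysomal RNA. Of all loci 17.2% in total and 10.6% in polysomal RNA were called under that scaling.

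Taken within each array, the difference CSY2 minus CSY3 fell by 3.58 ± 0.61 (SE, 3 arrays against 3) from 12 to 15 DAP in total RNA and by 1.61 ± 0.84 in polysomal RNA. From 15 to 20 DAP it moved the other way, by 0.74 ± 0.18 in total and 0.57 ± 0.22 in polysomal RNA. In each of these 4 comparisons the arrays of the stages compared did not overlap, which gave p = 0.1 in a two-sided exact permutation test, the smallest value that 3 against 3 arrays allow. The separation of 12 and 15 DAP was narrow in polysomal RNA, with -2.63 to 0.27 at 12 DAP and -2.90 to -2.66 at 15 DAP. In total RNA the ranges were -0.60 to 1.34 and -3.66 to -3.23. The polysomal change from 12 to 15 DAP was -0.89 without replicate 3 and -2.34 without replicate 2 of the 12 DAP arrays. That from 15 to 20 DAP was 0.37 without replicate 2 of the 20 DAP arrays. These values compare the changes of both genes and not their levels, since levels of different probe sets were not set against each other.

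The peroxisomal malate dehydrogenases moved in opposite directions. PMDH1, whose product is the isoform best known from seedlings, was at 5.35, 5.83 and 6.15 at 12 DAP, 9.43, 9.03 and 9.30 at 15 DAP, 9.73, 9.74 and 9.59 at 18 DAP, and 9.70, 9.67 and 9.61 at 20 DAP in total RNA. In polysomal RNA PMDH1 was at 6.45, 7.76 and 6.50 at 12 DAP, 9.80, 9.56 and 9.59 at 15 DAP, 9.79, 9.65 and 9.68 at 18 DAP, and 9.78, 9.87 and 9.67 at 20 DAP. All later arrays were above all 12 DAP arrays, the nearest of which, at 7.76, was polysomal replicate 2. PMDH1 rose by 3.48 ± 0.30 in total RNA (adjusted p = 4.85e-09), or 11.1-fold, and by 2.75 ± 0.30 in polysomal RNA (adjusted p = 9.81e-08). The difference of 0.41 ± 0.17 from 15 to 20 DAP in total RNA did not pass (adjusted p = 0.0880).

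PMDH2, the isoform that leaves also use in photorespiration, was at 6.09, 5.85 and 5.51 at 12 DAP, 2.54, 2.22 and 1.81 at 15 DAP, 1.93, 2.15 and 2.49 at 18 DAP, and 2.24, 2.23 and 2.54 at 20 DAP in total RNA. In polysomal RNA PMDH2 was at 5.50, 6.44 and 5.70 at 12 DAP, 2.34, 2.21 and 2.37 at 15 DAP, 2.23, 2.31 and 1.92 at 18 DAP, and 2.67, 2.03 and 2.22 at 20 DAP. Its 6 arrays of 12 DAP were between 5.50 and 6.44, and all 18 later arrays were between 1.81 and 2.67, where groups overlapped throughout. PMDH2 fell by 3.63 ± 0.37 in total RNA (adjusted p = 5.96e-08) and by 3.57 ± 0.37 in polysomal RNA (adjusted p = 5e-08). In whole seeds, fewer cells that carry a transcript and less of the transcript per cell cannot be told apart. From 15 DAP on, the mean rank of PMDH2 among all loci of an array lay between the percentiles 15.7 and 27.4, and no detection calls were used here. Its level there is not shown to be above background, so its fold changes are differences of array signal and do not give the size of the change in transcript.

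Most markers of other seed and fruit tissues fell in level over the same interval. Over all loci 18.4% fell in total and 34.2% in polysomal RNA, with median changes of -0.32 and -0.51. Of 8 seed coat markers, 7 fell between 12 and 15 DAP in each fraction, and their mean log2 level per total RNA array went from between 6.84 and 7.20 to between 3.15 and 3.42. Their mean level per polysomal array was between 5.80 and 6.07 at 12 DAP and between 2.86 and 3.23 at 15 DAP. Of 5 silique markers, 3 fell in total and 5 in polysomal RNA, with means of 3.76 to 5.48 at 12 DAP and 2.68 to 3.01 at 15 DAP in total RNA and of 4.23 to 4.72 and 2.26 to 2.72 in polysomal RNA. Of 7 endosperm markers, 4 fell and 1 rose in total and 5 fell and 1 rose in polysomal RNA, with means of 4.91 to 5.46 and 3.79 to 3.88 in total and of 4.76 to 5.23 and 3.39 to 3.69 in polysomal RNA. A lower level was not always a lower rank. From 12 to 15 DAP in polysomal RNA, the mean percentile of TT4 (seed coat) went from 99.3 to 64.0. That of TT12 (seed coat) went from 10.7 to 18.9, and that of FIS2 (endosperm) from 11.8 to 15.8. PHE1 (endosperm) went from 18.4 to 26.3. All other seed coat markers fell in mean percentile in polysomal RNA. In total RNA the mean percentile fell from 41.2 to 22.7 for TT12, from 26.5 to 10.3 for FIS2 and from 63.1 to 41.1 for PHE1. RMA levels have no true zero, so no marker can be called absent. The part of these tissues in the fall of PMDH2 and in the rises of the other genes was not tested.

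Within each array, PMDH1 minus PMDH2 rose by 7.11 ± 0.45 (SE, 3 arrays against 3) from 12 to 15 DAP in total RNA and by 6.32 ± 0.17 in polysomal RNA. These errors do not cover the scaling of the arrays. Under cyclic loess the polysomal change of PMDH1 alone was 0.47, against 2.75 as deposited. The arrays of 12 and 15 DAP did not overlap in either fraction (two-sided exact permutation test, p = 0.1, the smallest possible). From 15 to 20 DAP the same difference moved by 0.26 ± 0.25 in total (exact permutation p = 0.4) and 0.13 ± 0.22 in polysomal RNA (exact permutation p = 0.7), with overlapping arrays. Leaving out 1 array moved these values between 0.13 (without replicate 2 of 15 DAP) and 0.47 (without replicate 3 of 15 DAP) in total RNA, and between -0.058 (without replicate 2 of 20 DAP) and 0.30 (without replicate 1 of 20 DAP) in polysomal RNA. As the level of PMDH2 from 15 DAP on is not shown to be above background, all these differences are of array signal.

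PCK1 is the exit from the organic acids towards sugar. Its log2 level in total RNA was 7.75, 7.19 and 7.44 at 12 DAP, 10.70, 10.63 and 10.58 at 15 DAP, 10.68, 10.59 and 10.48 at 18 DAP, and 10.56, 10.50 and 10.59 at 20 DAP. In polysomal RNA its level was 7.66, 8.68 and 7.97 at 12 DAP, 11.01, 10.77 and 10.90 at 15 DAP, 10.81, 10.83 and 10.80 at 18 DAP, and 10.85, 10.58 and 10.81 at 20 DAP. All 18 later arrays were above the 6 of 12 DAP, and polysomal RNA of 15 DAP had the highest mean. PCK1 rose by 3.18 ± 0.26 in total RNA (adjusted p = 3.18e-09) and by 2.79 ± 0.26 in polysomal RNA (adjusted p = 1.39e-08). From 15 to 20 DAP its values were -0.09 ± 0.15 and -0.15 ± 0.15, of the sign opposite to those of ICL and MLS, and neither passed.

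**Figure D2:**
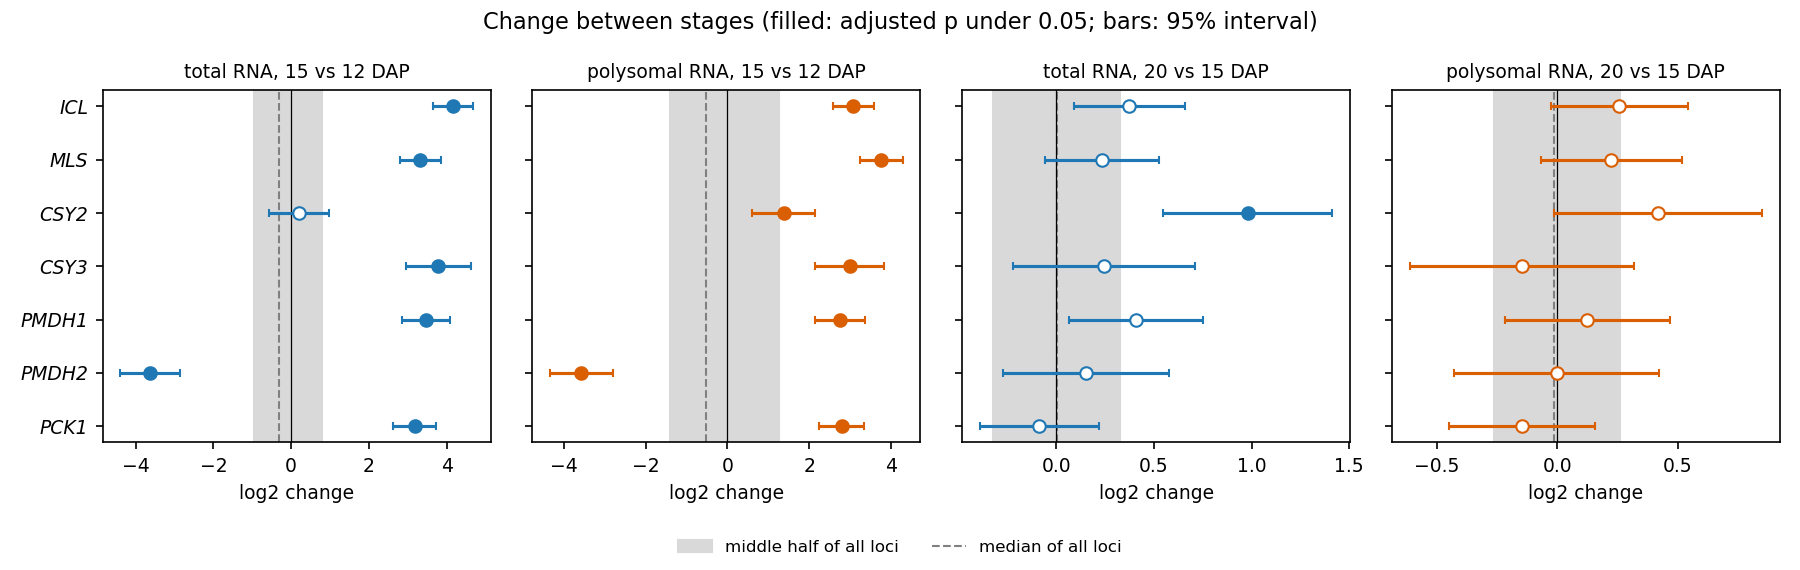
Log2 change of each gene from 12 to 15 DAP and from 15 to 20 DAP in total (blue) and polysomal RNA (orange), with 95% intervals. Filled points passed at adjusted p under 0.05, and the grey band and dashed line give the interquartile range and the median of all 27827 loci. At the first step 6 genes in total and 7 in polysomal RNA are filled and stand outside or at the edge of the band. At the second step CSY2 in total RNA is the one filled point, a call lost with equal weights. Other fits added ICL, MLS and PMDH1 there in total RNA and ICL and MLS in polysomal RNA.

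Over the whole span from 12 to 20 DAP, 6 of the 7 genes rose and PMDH2 fell in both fractions, where 50.2% of all loci were called in total RNA (25.6% higher and 24.6% lower) and 67.2% in polysomal RNA (31.1% higher and 36.1% lower). CSY2 had the smallest rise in both, 1.19 ± 0.37 in total RNA (adjusted p = 0.0118) and 1.79 ± 0.37 in polysomal RNA (adjusted p = 3.24e-04). Its call in total RNA was lost without replicate 2 (1.10, adjusted p = 0.0648) or without replicate 3 (0.98, adjusted p = 0.093) of the 12 DAP total arrays. Under quantile normalization CSY2 was at 0.22 in total and 0.32 in polysomal RNA and did not pass, and under cyclic loess it was at -0.63 and -0.36. The polysomal calls of CSY3, PMDH1 and PCK1 were also lost under cyclic loess, at 0.63, 0.64 and 0.49. The 20 against 12 DAP comparison shares its 12 DAP arrays with that of 15 against 12 DAP.

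The size of the rises depended on how the arrays were scaled to one another. With quantile normalization of the deposited values, the rises from 12 to 15 DAP in total RNA were 3.16 for ICL, 2.43 for MLS, 3.08 for CSY3, 2.60 for PMDH1 and 2.23 for PCK1, and all 5 passed. With cyclic loess they were 1.84, 0.96, 1.62, 1.40 and 0.90 in the same order, and all 5 passed. Of all loci, 22.7% were called in total RNA under quantile normalization and 18.7% under cyclic loess. The shares in polysomal RNA were 26.7% and 20.3%. In polysomal RNA under cyclic loess ICL rose by 0.84 (adjusted p = 0.00919) and MLS by 1.53 (adjusted p = 0.000197). The values of CSY3, PMDH1 and PCK1 were 0.71, 0.47 and 0.53 and did not pass (adjusted p = 0.182, 0.287 and 0.138). Quantile normalization kept these 3 calls in polysomal RNA, with rises of 1.74, 1.39 and 1.80, each more than 1.5 times smaller than as deposited. PMDH2 fell under every scaling, by 2.38 to 4.29. CSY2 changed direction: under cyclic loess it fell by 1.43 in total RNA from 12 to 15 DAP (adjusted p = 0.00945) and was at -0.72 in polysomal RNA (adjusted p = 0.204), and under quantile normalization its polysomal value was -0.06 (adjusted p = 0.956).

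**Figure D3:**
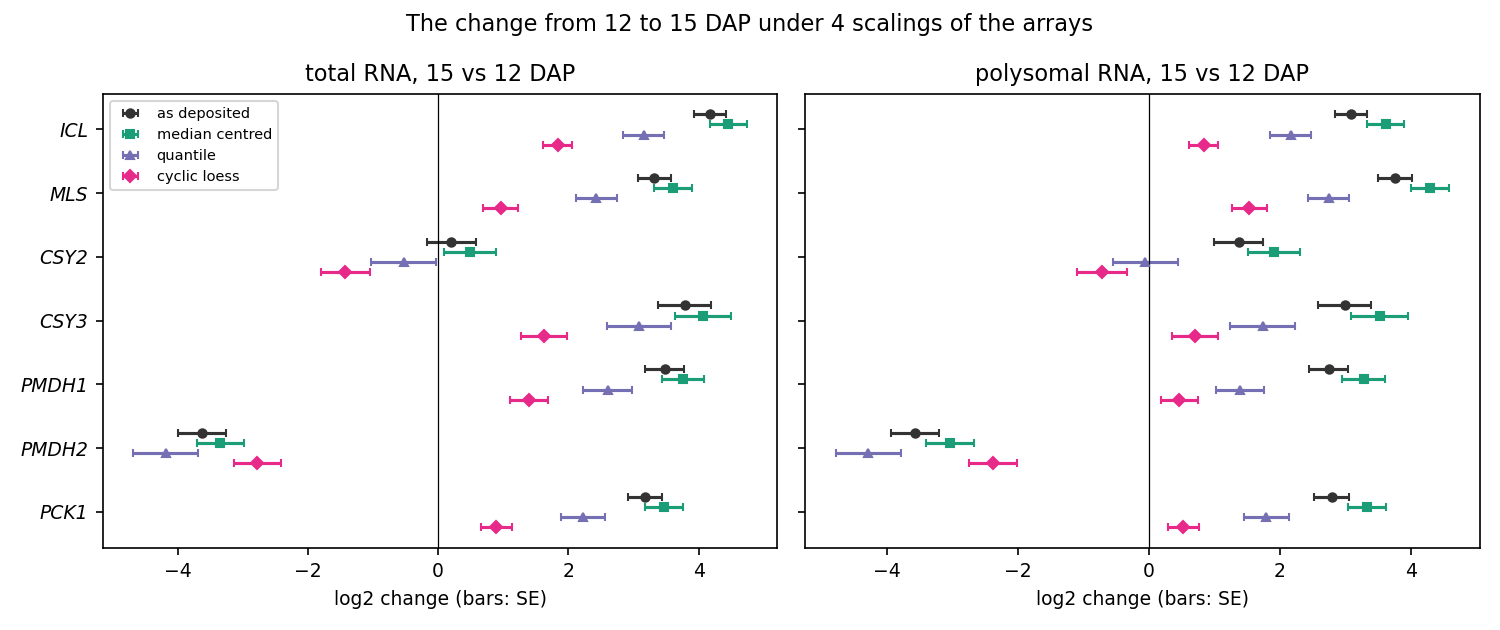
Log2 change from 12 to 15 DAP of each gene as deposited and after 3 further scalings of the arrays (median centring, quantile normalization and cyclic loess), with SE bars, in total (left) and polysomal RNA (right). Every gene but CSY2 keeps its direction, and the rises are smallest under cyclic loess.

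The question of whether the transcripts were loaded on ribosomes to a different degree than others was addressed by comparing the fractions at each stage. On normalized arrays this ratio is relative to the other transcripts, not the share of a transcript that sits on ribosomes. At 12 DAP ICL was higher in polysomal than in total RNA by 1.28 ± 0.32 (adjusted p = 0.0189), or 2.44-fold, and was the only 1 of the 7 genes called, where 5.2% of loci were (1.25% higher). Leaving out replicate 2 of the polysomal arrays, or replicate 2 or 3 of the total arrays, left ICL between 1.15 and 1.35 and without the call (adjusted p = 0.0502 to 0.0933), and with the compared arrays alone the adjusted p was 0.122. PMDH1 and CSY3 had values of 1.13 ± 0.39 and 0.999 ± 0.52 that did not pass (adjusted p = 0.0965 and 0.307), and MLS had -0.32 ± 0.33 (adjusted p = 0.642).

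At 15 DAP CSY2 was higher in polysomal RNA by 0.82 ± 0.21 (adjusted p = 0.00534), or 1.76-fold, with all 3 polysomal arrays above all 3 total arrays, and was 1 of 7 genes called against 31.8% of all loci (17.1% higher). Its difference was 0.47 under quantile normalization (adjusted p = 0.0879) and 0.49 under cyclic loess (adjusted p = 0.102), and with equal weights it did not pass (adjusted p = 0.106). Median centring added ICL (0.48), PMDH1 (0.67) and PCK1 (0.53) to the calls at 15 DAP. Under it 43.4% of all loci were called, and the median of all loci was 0.35 against 0.07 as deposited. At 18 and 20 DAP none of the 7 genes passed in limma, where 26.1% and 16.7% of loci were called. None of the 7 genes had an unadjusted p under 0.05 either, against 10844 and 8806 of all 27827 loci. Under quantile normalization ICL (0.45), MLS (0.41) and PCK1 (0.50) were called at 18 DAP and ICL (0.43) and MLS (0.41) at 20 DAP. Of all loci 14.5% and 8.56% were called at these stages under that scaling. For ICL at 20 DAP the difference was 0.08 with a 95% interval of -0.20 to 0.37, for MLS 0.11 with -0.18 to 0.40, and for PCK1 0.20 with -0.11 to 0.50.

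How the ratio of polysomal to total RNA changed between stages, tested as the interaction of fraction and stage, passed for none of the 7 genes in limma. At an unadjusted p under 0.05 the counts were 2 (ICL and CSY2) from 12 to 15 DAP, 0 from 15 to 20 DAP and 3 (ICL, CSY3 and PMDH1) from 12 to 20 DAP. Of all 27827 loci, 4910, 3060 and 5031 had an unadjusted p under 0.05 in the same order. After adjustment, the share of all loci called was 3.05% from 12 to 15 DAP, 0.223% from 15 to 20 DAP and 3.61% from 12 to 20 DAP. ICL came nearest, with -1.09 ± 0.35 from 12 to 15 DAP (adjusted p = 0.0937) and -1.20 ± 0.35 from 12 to 20 DAP (adjusted p = 0.0554), and with equal weights both passed (adjusted p = 0.0178 and 0.00846). Equal weights called 13.1% and 14.2% of all loci in these comparisons. CSY2 had 1.17 ± 0.53 from 12 to 15 DAP (adjusted p = 0.249). The differences between the fractions at 12 DAP and at 15 DAP were therefore not shown to differ from one another.

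**Figure D4:**
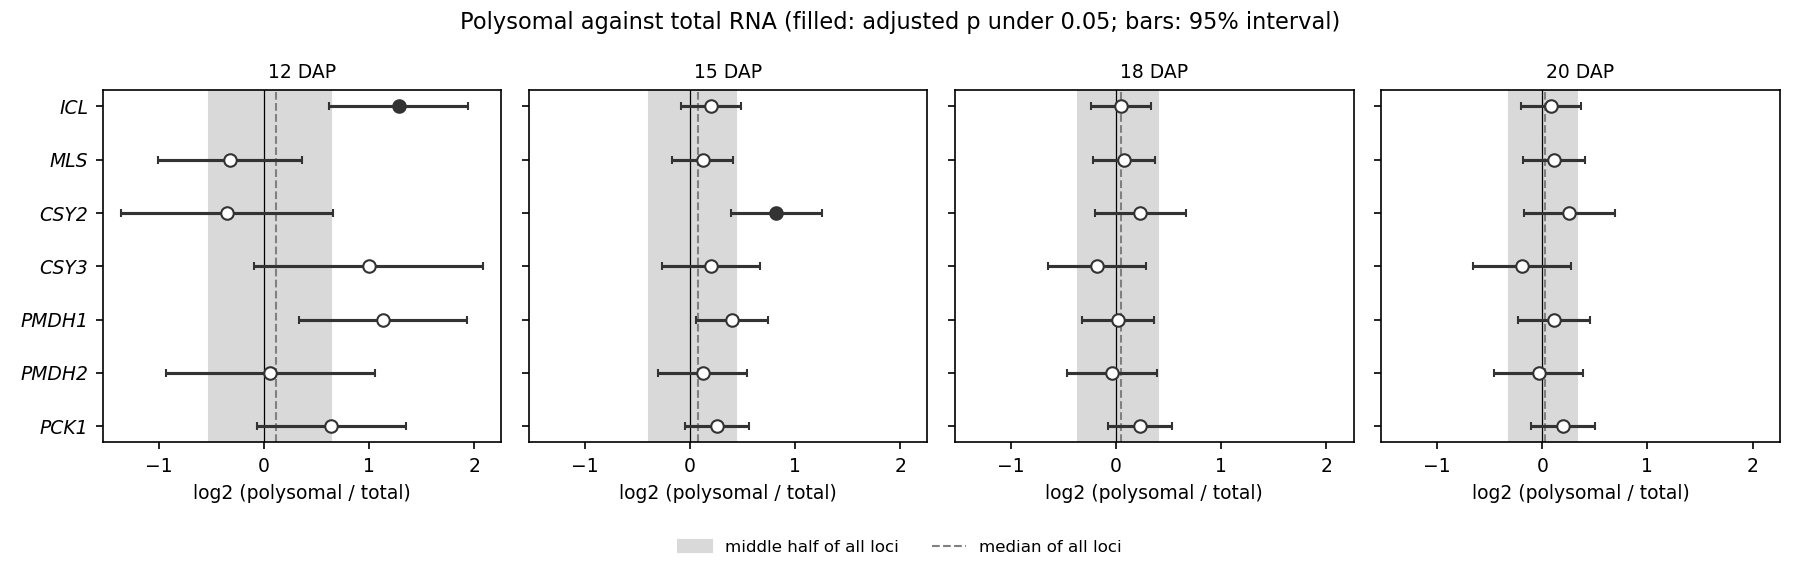
Log2 ratio of polysomal to total RNA of each gene at each stage, with 95% intervals on a common axis, filled where adjusted p was under 0.05, over the interquartile range (grey) and median (dashed) of all loci. ICL at 12 DAP and CSY2 at 15 DAP are the filled points, and the intervals are widest at 12 DAP.

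Relatives of the 7 genes in other compartments or families moved in both directions. The counts of this and the following lists from 12 to 15 DAP stand beside 21.8% of all loci higher and 18.4% lower in total RNA, 29.7% and 34.2% in polysomal RNA, and medians of -0.32 and -0.51. Of 14 relatives, 5 rose and 3 fell in total RNA between 12 and 15 DAP, with a median of -0.02, and 5 rose and 5 fell in polysomal RNA, with a median of -0.65. CSY1, the third peroxisomal citrate synthase, fell by 3.23 ± 0.53 in total (adjusted p = 3.54e-05) and by 4.73 ± 0.53 in polysomal RNA (adjusted p = 1.47e-07), and under every scaling by at least 2.38. CSY1 and CSY2 are neighbours in the RefSeq gene order, with 0 protein-coding loci between them. CSY4, a mitochondrial citrate synthase, rose by 3.11 ± 0.28 in total and 2.60 ± 0.28 in polysomal RNA (adjusted p = 1.1e-08 and 1e-07). Its values under cyclic loess were 1.04 and, without the call, 0.32. The second PEP carboxykinase gene, PCK2, fell by 1.61 ± 0.35 in total RNA and fell by 1.504 ± 0.35 in polysomal RNA (adjusted p = 7.73e-04 and 9.32e-04), calls that were lost under quantile normalization and cyclic loess at the same sign. In total and polysomal RNA of 15 DAP, the mean percentiles were 18.1 and 21.9 for CSY1 and 20.8 and 19.9 for PCK2. Like PMDH2, neither is shown there to be above background, so the falls of CSY1 and PCK2 are of array signal.

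Among the other malate dehydrogenases, NADP-MDH of the plastid rose by 2.49 ± 0.41 in total and 2.90 ± 0.41 in polysomal RNA, and under cyclic loess was at 0.51 and 0.64, which did not pass. Of the 14 relatives, 3 rose in total and 4 in polysomal RNA from 15 to 20 DAP, and 0 fell. Of all 27827 loci, 3140 rose and 2291 fell in total RNA over that interval (19.5% called). In polysomal RNA 1938 rose and 1471 fell (12.3% called).

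**Figure D5:**
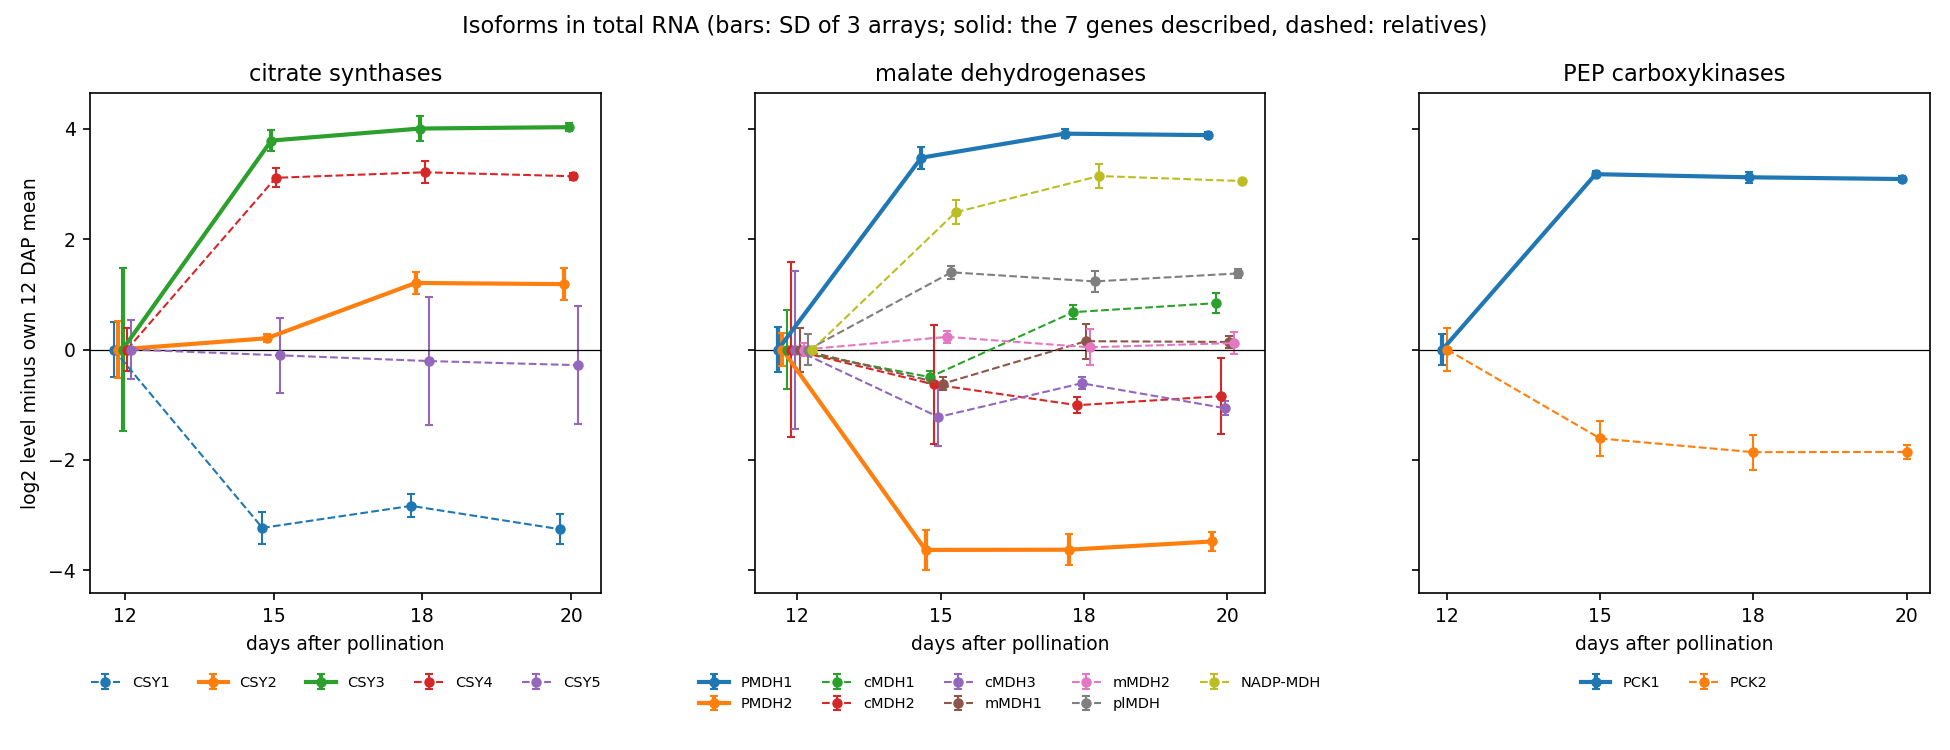
Mean log2 level in total RNA minus the 12 DAP mean of the same gene, with SD of 3 arrays, for citrate synthases, malate dehydrogenases and PEP carboxykinases; solid lines are CSY2, CSY3, PMDH1, PMDH2 and PCK1, and dashed lines are relatives. CSY3 and CSY4 rise while CSY1 falls, PMDH1 and PMDH2 part, and PCK1 and PCK2 part.

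Of 10 genes that feed the cycle or carry its products away, 5 rose and 1 fell in total RNA from 12 to 15 DAP and 6 rose and 1 fell in polysomal RNA, with medians of 0.75 and 1.26. Under cyclic loess those counts were 1 and 1 in total and 1 and 0 in polysomal RNA. Of all 27827 loci, 2227 rose and 2978 fell in total RNA under that scaling, and 2591 and 3047 in polysomal RNA. SDH2-3, the iron-sulphur subunit of succinate dehydrogenase known from seeds, rose by 3.98 ± 0.31 in total and 3.90 ± 0.31 in polysomal RNA (adjusted p = 1.15e-09 and 1.04e-09), and then fell by 0.84 ± 0.17 and 0.71 ± 0.17 from 15 to 20 DAP (adjusted p = 0.00139 and 0.00716). Its directions were the same under every scaling. SDH2-2, another such subunit, rose by 1.21 ± 0.27 in total and 0.89 ± 0.27 in polysomal RNA over that second interval (adjusted p = 0.00284 and 0.0312), the polysomal call being lost under each other scaling. FUM2, the cytosolic fumarase, fell by 1.62 ± 0.57 and 2.04 ± 0.57 from 12 to 15 DAP (adjusted p = 0.0264 and 0.00399). It kept its sign but not its call under quantile normalization and cyclic loess, and in total RNA under median centring. FUM2 was at 1.86, 5.31 and 4.05 on the total RNA arrays of 12 DAP. At 15 DAP its mean percentile was 14.4 in total and 11.6 in polysomal RNA, not shown to be above background.

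Of 23 genes on the path from pyruvate and PEP to sucrose, 8 rose and 5 fell in total RNA from 12 to 15 DAP, with a median of -0.22, and 8 rose and 11 fell in polysomal RNA, with a median of -0.97. Beside 21.8% higher and 18.4% lower over all loci in total RNA, and 29.7% and 34.2% in polysomal RNA, nothing is read from the counts of this list. Under cyclic loess 1 rose and 10 fell in total and 1 rose and 12 fell in polysomal RNA. Of all 27827 loci, 2227 rose and 2978 fell in total RNA under that scaling, and 2591 and 3047 in polysomal RNA. UGP2, a UDP-glucose pyrophosphorylase, rose by 3.30 ± 0.25 in total RNA (adjusted p = 1.18e-09) under every scaling. Its polysomal rise of 1.26 ± 0.25 turned to -0.25 under quantile normalization and -0.86 under cyclic loess. SPSB, a sucrose-phosphate synthase, rose by 3.55 ± 0.30 in polysomal RNA (adjusted p = 2.93e-09), and FBA8, a cytosolic aldolase, fell by 2.65 ± 0.51 in total and 2.96 ± 0.51 in polysomal RNA (adjusted p = 2.45e-04 and 4.8e-05). From 15 to 20 DAP the largest rises were of cFBP, the cytosolic fructose-1,6-bisphosphatase, by 1.35 ± 0.24 in total RNA (adjusted p = 3.59e-04) and of FBA8 by 1.52 ± 0.29 in polysomal RNA (adjusted p = 8.6e-04). UGP2 fell by 0.44 ± 0.14 in polysomal RNA over that interval (adjusted p = 0.0438), a call lost under median centring.

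Photorespiration shares peroxisomal malate dehydrogenase with the cycle. Of 9 genes for it, catalases included, 4 rose and 2 fell in total RNA from 12 to 15 DAP and 3 rose and 4 fell in polysomal RNA, with medians of -0.13 and -0.63. Over all loci the shares were 21.8% and 18.4% in total and 29.7% and 34.2% in polysomal RNA, with medians of -0.32 and -0.51, and with 9 genes nothing is read from these counts either. Under cyclic loess 0 rose and 5 fell in total and 0 rose and 6 fell in polysomal RNA. Of all 27827 loci, 2227 rose and 2978 fell in total RNA under that scaling, and 2591 and 3047 in polysomal RNA. The glutamate:glyoxylate aminotransferases parted: GGT2 rose by 2.51 ± 0.32 in total and 2.77 ± 0.32 in polysomal RNA (adjusted p = 1.57e-06 and 2.63e-07), without the call under cyclic loess, and GGT1 fell by 2.72 ± 0.38 in total RNA (adjusted p = 5.09e-06) under every scaling. GOX1, a glycolate oxidase, fell by 2.63 ± 0.48 in polysomal RNA (adjusted p = 9.59e-05), and was at -1.31 without the call under cyclic loess. The mean percentile of GOX1 in polysomal RNA at 15 DAP was 19.6, not shown to be above background. From 15 to 20 DAP GGT1 rose by 1.55 ± 0.21 in total and GOX2 by 1.08 ± 0.30 in polysomal RNA, while the catalase CAT1 fell by 0.90 ± 0.17 and 0.73 ± 0.17 (adjusted p = 2.23e-05, 0.0177, 7.95e-04 and 0.00598).

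Among the 7 genes themselves, Pearson correlations over all 24 arrays largely describe the step after 12 DAP. ICL and PMDH1 had r = 0.99, ICL and MLS 0.96, and PMDH2 had -0.75 with CSY2 and -0.90 to -0.98 with the other 5 genes. Over the 18 later arrays ICL, MLS, CSY2 and PMDH1 still varied together, with r from 0.79 to 0.93, whereas CSY3 had 0.26 to 0.46 with those 4 and PCK1 had 0.04 to 0.24 with the other 6 genes. PMDH2 had -0.08 to 0.23. These arrays share stage, fraction and normalization, so the coefficients are descriptions over arrays that are not independent.

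The loci with the most similar course over all 24 arrays were found among all loci outside the 7. For ICL they were CcdA (AT5G54290, r = 0.994) and RAP2.1 (AT1G46768, 0.992), an AP2-type transcription factor. MLS was closest to AT5G54000 (0.997) and AT1G62420 (0.995), and CSY2 to BRU6 (AT4G37390, 0.946) and AT3G08943 (0.935). CSY3 was closest to ATECP31 (AT3G22500, 0.989), a late embryogenesis abundant protein, and AT3G06610 (0.988). PMDH1 had AT1G63770 (0.992) and AT5G63195 (0.991), and PCK1 had NADP-ME1 (AT2G19900, 0.992), an NADP-malic enzyme, and AT5G66430 (0.992). PMDH2 had AT1G62220 (0.988) and LHB1B2 (AT2G34420, 0.987), a light-harvesting chlorophyll-binding protein of photosystem II.

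Over the 18 later arrays the closest loci were others. ICL was closest to AT2G19350 (0.967) and ACHT4 (AT1G08570, 0.956), an atypical thioredoxin, and MLS to UBC1 (AT1G14400, 0.945), a ubiquitin-conjugating enzyme, and ACHT4 (0.931). CSY2 was closest to AT4G24750 (0.939) and AT2G36540 (0.935), and PMDH1 to AT3G02300 (0.941) and ZML2 (AT1G51600, 0.921), a GATA-type factor. For PCK1 they were FIM1 (AT4G26700, 0.939), a fimbrin, and AT1G10180 (0.933). The coefficients were lower for CSY3, with TOPP3 (AT1G64040, 0.811) and UBQ14 (AT4G02890, 0.806), and for PMDH2, with AT3G59890 (0.735) and AT2G01240 (0.720). PMDH2 is not shown to be above background on these arrays, so no shared course is read from its coefficients.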

How the data were processed

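The authors deposited log2 values, one probe set for each locus, calculated with RMA per the submitters' processing notes, which give no version. RMA subtracts background, normalizes arrays to one another and summarizes probes. The array design, the arrays normalized together and a genome build are not given in the sources used here, so positions are left out. The precision is limited by the number of arrays, 3 per group, and there is no read depth.

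All 27827 loci were tested, without a filter, in R 4.3.3 with limma 3.58.1. One model of the 8 groups over 24 arrays gave the 6 arrays of 12 DAP one weight and the 18 later arrays another (arrayWeights: 0.281 and 1.53), with Benjamini-Hochberg adjustment over all loci and a threshold of 0.05. The 17 comparisons were the 5 pairs of stages named in each fraction, the fractions at each stage, and 3 changes of their ratio. Within-array differences between isoforms were tested by exact permutation. The steps were tested on simulated data. Names and gene order come from a RefSeq table, which held 27241 of the loci. Another 182 loci had values identical to another locus and were not named.

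The 7 genes and the lists were chosen with earlier results of these data known. The text names all 7, of each other list the largest called rise and fall in each fraction from 12 to 15 and from 15 to 20 DAP, and for each of the 7 the 2 loci with the highest Pearson correlation. A gene of another list that the rule would name is not reported here. PCK2, the other gene of its family, was named outside this rule, after its values were seen. The markers TT4, TT12, FIS2 and PHE1 were likewise named outside it. Alternatives covered weights, arrays in the fit, scaling, a filter on dim loci, replicate blocks and leaving out replicates.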

Additional observations from a re-analysis of the deposited data

How the results depend on the processing

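Of 1792 values of the 7 genes under alternatives, 1728 kept their direction where called and their side of the threshold, 22 lost a call, 37 gained one and 5 reversed. Of the 1728, 86 values that were not called changed sign. The reversed values were all of CSY2: -1.43 in total RNA and -0.72 in polysomal RNA from 12 to 15 DAP and -0.63 and -0.36 from 12 to 20 DAP under cyclic loess, and -0.057 in polysomal RNA from 12 to 15 DAP under quantile normalization. As for the number of the 7 genes called, equal weights gave 0 for total RNA at 18 against 15 DAP and at 20 against 15 DAP, 3 and 0 for polysomal against total RNA at 12 and 15 DAP, and 1 each for the change of the ratio at 15 and at 20 against 12 DAP, in both cases ICL. Of all loci, equal weights called 2.59% and 5.06% in those total RNA comparisons. Between the fractions they called 31.4% and 11.8%, and for the ratio 13.1% and 14.2%. The compared arrays alone gave 0 for total RNA at 18 against 15 DAP and 0 for the fractions at 12 DAP. Of all loci they called 1.44% and 5.65%. Without the 12 DAP arrays the counts were 2 and 3 for total RNA at 18 and 20 against 15 DAP and 2 for the fractions at 15 DAP. The shares of all loci were 13.4%, 19.2% and 31.1%. Quantile normalization gave 3 and 4 for total RNA and 2 and 2 for polysomal RNA at 18 and 20 against 15 DAP, and 3, 3 and 2 for the fractions at 15, 18 and 20 DAP. In the same order it called 12.2% and 17.2%, 9.59% and 10.6%, and 20.7%, 14.5% and 8.56% of all loci. Median centring gave 4 for the fractions at 15 DAP, with 43.4% of all loci called. Cyclic loess gave 2 and 2 for total RNA at 18 and 20 against 15 DAP, 3 for polysomal RNA at 15 against 12 DAP, 1 at 20 against 15 DAP and 3 at 20 against 12 DAP. In the same order it called 12.8%, 17.4%, 20.3%, 12.4% and 21.9% of all loci. Without the dimmest 25% of loci the counts were 2 for total RNA at 20 against 15 DAP, 2 for the fractions at 15 DAP and 1 for the ratio at 20 against 12 DAP. Of the 20870 loci kept, 27.8%, 41.7% and 4.65% were called. Leaving out 1 replicate gave 0 to 1 genes for the fractions at 12 DAP and 1 to 2 at 15 DAP, and -0.058 to 0.30 in polysomal and 0.13 to 0.47 in total RNA for PMDH1 minus PMDH2 from 15 to 20 DAP. For CSY2 minus CSY3 in polysomal RNA it gave -2.34 to -0.89 from 12 to 15 DAP and 0.37 to 0.73 from 15 to 20 DAP. The cause of these shifts was not tested.

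The labels do not say whether a replicate number marks the same block or seeds across groups. Deviations of same-numbered arrays from their group means correlated at -0.06 to 0.24 over 84 pairs of arrays from different groups (median 0.0044). The value was over 0.1 in 7 pairs. In the 12 pairs of the same stage and number but different fraction it was -0.021 to 0.021. With the replicate block, 2 genes instead of 1 were called in total RNA at 20 against 15 DAP, the added gene being ICL (adjusted p = 0.0481). That fit called 20.3% of all loci. With a block of stage and number shared by the fractions, 0 were called between the fractions at 12 DAP (ICL, adjusted p = 0.0626), and 3.65% of all loci. Neither block changed another count of the 7 genes by over 1.5 times.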
